A study of Mus musculus with 6 samples.

Results

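The genes described here are 40 that encode the DNA polymerases and the proteins that open, extend and protect the replication fork in mouse. They were taken by gene symbol from a fixed list covering origin recognition, origin firing, the replicative polymerases, the sliding clamp and its loader, GINS and chromatin assembly. The MCM helicase genes were left out of the list. All 40 were found among the 23420 genes of the deposited count table and all 40 passed the filter on low counts, so none was left out of the test. Raw counts ranged from 313 for Gins2 to 35049 for Pcna in a single library, and no gene of the list had a 0.

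Messenger RNA was sequenced from cultured mouse epidermal keratinocytes, the epithelial cells of the outer skin layer. Every sample was homozygous for a floxed allele of Gata6, a zinc finger transcription factor gene, and every sample received 4-hydroxytamoxifen at 1 µM for 6 hours at passage 8 to 10 in a medium low in calcium. The 3 samples labelled iKO carried the K14CreERT2 transgene, a tamoxifen-activated recombinase under the keratin 14 promoter that is active in basal keratinocytes, and the 3 labelled WT lacked it. The WT samples are therefore floxed, tamoxifen-treated cells without Cre, so an effect of the recombinase itself cannot be told apart from loss of Gata6. Libraries are named WT 2, WT 3, WT 4, iKO 3, iKO 4 and iKO 33, after the numbers in the column names.

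Replication starts where the origin recognition complex (ORC) has marked DNA and loaded the MCM helicase. The Cdc7-Dbf4 kinase then lets Cdc45 and the GINS complex join the helicase, polymerase alpha with primase lays down primers, and polymerases epsilon and delta extend the leading and lagging strands, held to DNA by the PCNA clamp. In epidermis this machinery is used mainly by dividing basal and hair follicle matrix cells, and low calcium keeps cultured keratinocytes in a dividing, undifferentiated state. Many of these genes are known targets of E2F transcription factors, which drive genes of S phase.

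Several facts of the libraries bear on each comparison below. Gene counts ranged from 21943467 in WT 2 to 83337263 in iKO 33, and since no label ties a library to its own culture or animal, the p-values measure only the spread between these libraries. The targeted gene ran against its label: Gata6 stood at 2.86, 0.519 and 5.37 CPM (counts scaled to a common library total with TMM factors) in the WT libraries and at 14.2, 21.02 and 17.0 CPM in the iKO libraries, from counts over the whole gene that do not test the floxed exons. Its log2 fold change of 2.60 (SE 0.72) had an adjusted p of 0.180 in edgeR and of 0.00130 in DESeq2. Because of this, "lower" and "higher" here always mean the library labels: iKO against WT. Xist, the RNA of the inactive X chromosome, was at 736 ± 143 CPM against 1.17 ± 1.31 CPM (SD, n = 3). What this difference marks, such as the sex of the cells, cannot be told apart from the label. All 9 keratinocyte markers were detected, summing to between 35814 and 49573 CPM in the WT libraries and between 37440 and 55630 CPM in the iKO libraries. Trp63, the regulator of basal keratinocytes on that list, did not follow the sum and measured 331, 307 and 323 CPM in the WT libraries and 203, 191 and 205 CPM in the iKO libraries, without overlap. The log2 fold change of Trp63 was -0.68 (SE 0.10), with an adjusted p of 0.0529 in edgeR and 3.73e-07 in DESeq2, and its part in the fork genes' values was not tested. Fibroblast markers summed to 0.876 to 4.75 against 1.09 to 4.64 CPM, immune markers to 2.13 to 4.29 against 2.91 to 3.58 CPM, melanocyte markers to 6.08 to 11.9 against 5.69 to 8.46 CPM and endothelial markers to 9.31 to 19.0 against 7.29 to 8.94 CPM. Of the 8 fibroblast, 6 immune, 6 melanocyte and 5 endothelial markers, 2, 2, 4 and 2 passed the filter on low counts, and Dcn, Lum, Cd207, Dct and Emcn had no count in any library. The endothelial sums alone did not overlap between the groups, and their part in the results was not tested.

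The comparison sets libraries labelled iKO against those labelled WT, and a loss of Gata6 was not seen in its whole-gene counts. In the libraries labelled iKO, 37 of the 40 genes had a negative log2 fold change, against 48.8% of the 12672 genes tested. Their median was -0.31, against 0.01 for all tested genes, and the range ran from -0.77 for Pold1 to 0.13 for Rnaseh2a. In edgeR's quasi-likelihood test with Benjamini-Hochberg adjustment none of the 40 passed 0.05, where 0.339% of all genes passed in either direction; the lowest adjusted p of the 40 was 0.116. An unadjusted p under 0.05 was reached by 19 of the 40, all lower, against 7.7% of all genes. The groups did not overlap for 20 of the 40, all lower in the iKO libraries, against 11.3% of all genes. The 40 were chosen with results of these data known, so these counts describe them and are no test. Counts by role group below cover 2 to 7 genes each and are set against the same shares of 7.7% and 11.3%. In bulk RNA, fewer cells in S phase and less RNA per cell cannot be told apart.

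DESeq2, fitted as an alternative to the same counts, called 7 of the 40 lower and none higher, against 2.72% of the genes it adjusted that it called lower. The 7 were Gins1, Prim2, Pold1, Pole2, Pcna, Rfc3 and Wdhd1. The authors' deposited table called the same 7 genes, against 2.85% of its genes called lower. In the authors' deposited table the log2 fold changes of the 7 ranged from -0.67 for Pold1 to -0.48 for Rfc3. The highest adjusted p of each of the 7 over all alternatives ran from 0.569 for Pcna to 0.664 for Pold1.

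**Figure D1:**
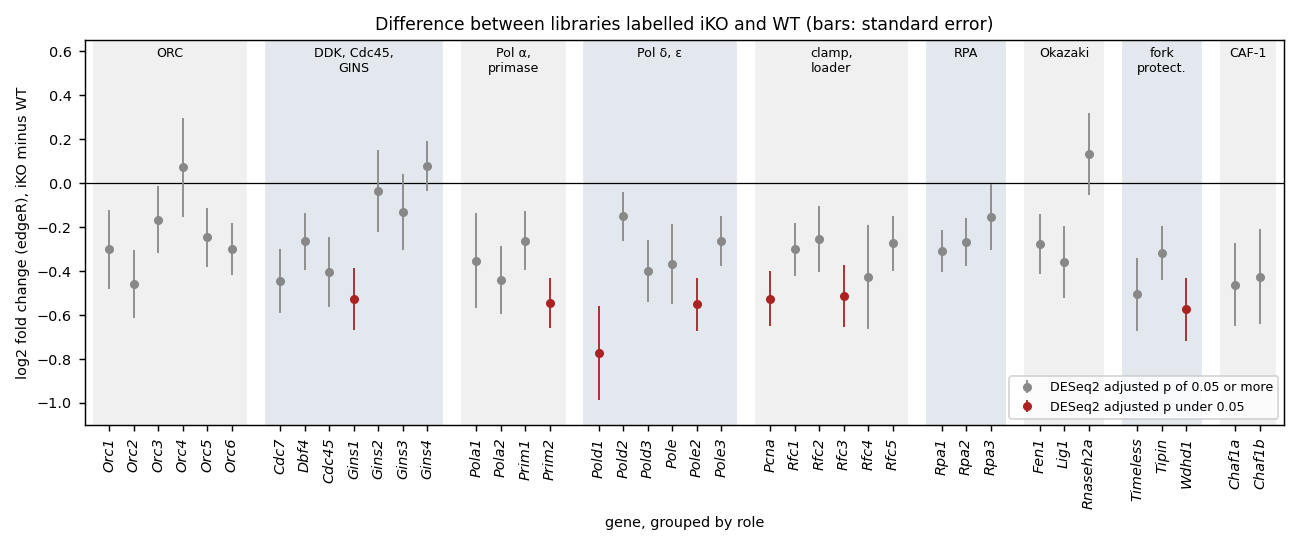
Log2 fold change in edgeR of each of the 40 genes, libraries labelled iKO minus libraries labelled WT, with the standard error as a bar and genes grouped by role. The 37 points below 0 range from -0.77 to -0.04, the 3 above 0 are Orc4, Gins4 and Rnaseh2a, and red marks the 7 genes that DESeq2 called.

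Single libraries moved these counts. In the WT group WT 3 was the lowest library for 21 of the 40 genes and the highest for 10, among them Pcna, Rfc1, Prim2, Dbf4 and 4 ORC genes. In the iKO group iKO 4 was the highest library for 28 genes. Without WT 3 the groups did not overlap for 31 of the 40 genes, against 18% of all genes in that comparison. The number with an unadjusted p under 0.05 and a lower level was 15 without WT 2 (5.68% of all genes), 19 without WT 3 (7.04%) and 20 without iKO 4 (6.75%). It was 11 without WT 4 (6.14% of all genes), 11 without iKO 3 (6.1%) and 11 without iKO 33 (5.74%). The 2 deepest libraries, WT 3 and iKO 33, compared on their own gave 37 lower genes and a median log2 ratio of -0.34, and the other 4 libraries gave 37 lower genes and a median of -0.32.

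**Figure D2:**
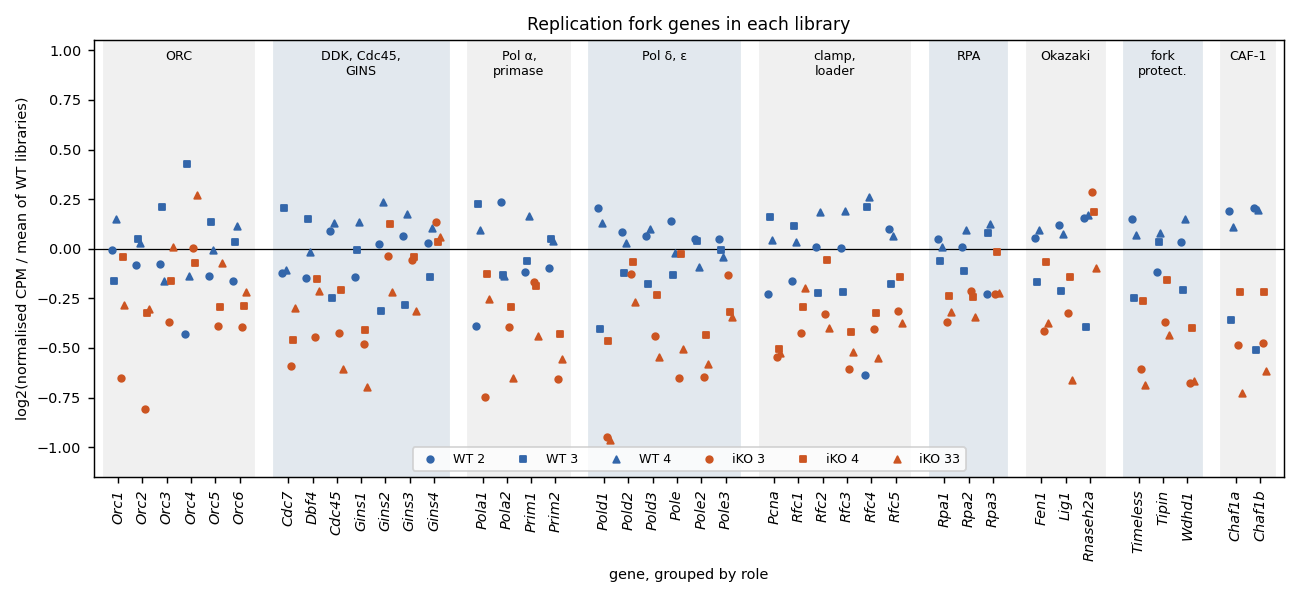
Normalised CPM of each gene in each library, as log2 of the ratio to the mean of the 3 WT libraries, with one point per library and genes grouped by role. For 20 genes all iKO points lie below all WT points, and WT 3 (blue squares) is the lowest WT point for 21 genes.

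Many of these genes are known E2F targets, so their promoters were read for the E2F motif. Promoters from RefSeq (build GRCm38.p6, the assembly of mm10) covering 250 bases before to 50 bases after a start site were matched for 33 of the 40 genes. They were searched on both strands for TTTCCCGC, TTTGGCGC, TTTGCCGC and TTTCGCGC, which are spellings of the E2F motif. No spelling is contained in another. Of the 33 genes, 9 held a match, a share of 27.3%, against 4.75% of the 9366 tested genes with a promoter and 2.60% of all 27025 genes in the table. The 150 bases just before the start site are printed for the 5 genes with a match in them, then for Pcna, the most abundant of the 40 transcripts, and Rnaseh2a, the one with the highest fold change, neither of which held a match. Capitals mark the match, read 5′ to 3′ on the strand of the gene.

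Orc1 (chr4:108579304-108579453, plus strand): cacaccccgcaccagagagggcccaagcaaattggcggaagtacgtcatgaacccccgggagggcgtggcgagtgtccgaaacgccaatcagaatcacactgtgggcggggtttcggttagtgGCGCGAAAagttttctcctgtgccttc
Orc3 (chr4:34614943-34615092, minus strand): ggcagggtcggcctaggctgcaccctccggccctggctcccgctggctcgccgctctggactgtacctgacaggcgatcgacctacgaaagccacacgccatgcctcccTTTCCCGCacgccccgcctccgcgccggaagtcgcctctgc
Gins3 (chr8:95633409-95633558, plus strand): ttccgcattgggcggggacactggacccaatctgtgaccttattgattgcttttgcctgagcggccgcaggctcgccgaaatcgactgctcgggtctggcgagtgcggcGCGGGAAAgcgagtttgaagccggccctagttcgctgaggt
Pola1 (chrX:93632156-93632305, minus strand): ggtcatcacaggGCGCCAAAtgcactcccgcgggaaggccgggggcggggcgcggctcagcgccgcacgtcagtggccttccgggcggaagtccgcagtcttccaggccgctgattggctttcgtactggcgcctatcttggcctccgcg
Rfc3 (chr5:151651209-151651358, minus strand): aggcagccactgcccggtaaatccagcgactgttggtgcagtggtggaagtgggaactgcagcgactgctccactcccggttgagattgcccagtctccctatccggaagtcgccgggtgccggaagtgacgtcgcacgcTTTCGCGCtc
Pcna (chr2:132253181-132253330, minus strand): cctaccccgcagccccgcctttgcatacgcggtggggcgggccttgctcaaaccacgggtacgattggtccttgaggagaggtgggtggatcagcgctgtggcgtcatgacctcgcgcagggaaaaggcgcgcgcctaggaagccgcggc
Rnaseh2a (chr8:84966077-84966226, minus strand): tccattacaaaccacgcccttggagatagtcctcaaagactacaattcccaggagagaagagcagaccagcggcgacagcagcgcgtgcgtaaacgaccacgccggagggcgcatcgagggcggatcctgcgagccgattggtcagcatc

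The matches began 27 bases before the start site in Orc1, 41 in Orc3, 41 in Gins3, 138 in Pola1 and 10 in Rfc3, and Rfc3 held a further match on the other strand from the start site itself. The printed match read on the gene's own strand in Orc3 and Rfc3 and on the other strand in Orc1, Gins3 and Pola1. In Lig1, Pold1, Pold3 and Pole2 the match lay after the start site, within the 50 transcribed bases that are not printed. The 9 genes with a match had log2 fold changes between -0.77 and -0.13 (median -0.36), and the 24 without one between -0.57 and 0.13 (median -0.30). These ranges overlapped, and no match says only that these letters were absent from the window. The share of genes with a match describes the promoter sequences of the list, and its part in the fold changes was not tested.

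Origin recognition genes were lower by small amounts, with 1 exception. Of the 6 ORC subunit genes, 5 had a negative fold change (median -0.27), 2 reached an unadjusted p under 0.05 without overlap between the groups, and none passed after adjustment. Orc2, which encodes a core subunit of the complex, measured 96.5, 106 and 105 CPM in WT 2, WT 3 and WT 4, and 58.5, 81.7 and 82.9 CPM in iKO 3, iKO 4 and iKO 33. Every iKO library lay below every WT library, and iKO 3 was the lowest. Its log2 fold change was -0.46 (SE 0.15) with an edgeR adjusted p of 0.243. Orc6, the subunit least like the others in sequence, measured 59.7, 68.4 and 72.3 CPM in the WT libraries and 50.9, 54.7 and 57.5 CPM in the iKO libraries, again without overlap, and its log2 fold change was -0.30 (SE 0.12) with an edgeR adjusted p of 0.309. Orc4, a subunit of the ATPase family that ORC is built from, measured 47.4, 85.8 and 58.0 CPM in the WT libraries and 63.9, 60.7 and 76.8 CPM in the iKO libraries. The Orc4 groups overlapped, WT 3 being the highest and WT 2 the lowest of the 6. Its log2 fold change of 0.07 (SE 0.23) was -0.10 without WT 2 and 0.35 without WT 3, so its sign rested on single libraries. Orc1, the ATPase subunit whose level varies over the cell cycle, had a log2 fold change of -0.30 (SE 0.18), and Orc3 and Orc5, further core subunits, had -0.17 (SE 0.15) and -0.25 (SE 0.13), all 3 with overlapping groups.

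Among the genes for origin firing, log2 fold changes ran from -0.53 for Gins1 to 0.08 for Gins4, and differences between subunits were not tested. Of 7 genes for the kinase, Cdc45 and GINS, 6 had a negative fold change (median -0.26), 3 reached an unadjusted p under 0.05 and none passed after adjustment in edgeR. Cdc7, the catalytic subunit of the kinase that fires origins, measured 26.9, 33.7 and 27.2 CPM in WT 2, WT 3 and WT 4, and 19.4, 21.3 and 23.8 CPM in iKO 3, iKO 4 and iKO 33. The groups did not overlap, and its log2 fold change was -0.44 (SE 0.15), edgeR adjusted p 0.237. Dbf4, the regulatory subunit that activates Cdc7, was the more abundant of the pair per kilobase and had a log2 fold change of -0.26 (SE 0.13), also without overlap. Cdc45, part of the active helicase, measured 46.5, 36.8 and 47.9 CPM in the WT libraries and 32.6, 37.9 and 28.7 CPM in the iKO libraries, where iKO 4 lay above WT 3. Its log2 fold change was -0.40 (SE 0.16) with an edgeR adjusted p of 0.306.

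Gins1 was the lowest of the GINS genes in fold change. Gins1 measured 22.4, 24.7 and 27.2 CPM in WT 2, WT 3 and WT 4, and 17.8, 18.6 and 15.2 CPM in iKO 3, iKO 4 and iKO 33, without overlap. Its log2 fold change was -0.53 (SE 0.14), with an adjusted p of 0.176 in edgeR and 0.0368 in DESeq2. Gins4, by contrast, measured 37.9, 33.7 and 39.9 CPM in the WT libraries and 40.8, 38.1 and 38.8 CPM in the iKO libraries, with overlapping groups and a log2 fold change of 0.08 (SE 0.11). Gins2 and Gins3 stood at -0.04 (SE 0.19) and -0.13 (SE 0.17), both with overlap, and the sign of Gins2 changed without WT 4 and without iKO 33. Gins2 also shares 67.3% of its exon bases with Gse1 on the opposite strand. The 4 subunits sit in the complex in equal number. The ratio of Gins1 to Gins4 CPM within a library, which no scaling of libraries can move, was 0.591, 0.733 and 0.680 in WT 2, WT 3 and WT 4 and 0.435, 0.489 and 0.393 in iKO 3, iKO 4 and iKO 33. The ratio was thus lower in each iKO library than in any WT library; this pair was chosen after its values were seen, and the difference was not tested.

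All 4 genes of polymerase alpha and primase, the enzyme that starts each new strand, had negative fold changes (median -0.40). Prim2, the large primase subunit, had the smallest p of the 40 genes. Prim2 (chromosome 1, 33453810 to 33669795, minus strand, mm10) measured 44.9, 49.6 and 49.2 CPM in WT 2, WT 3 and WT 4, and 30.4, 35.6 and 32.6 CPM in iKO 3, iKO 4 and iKO 33. All 3 iKO libraries lay below all WT libraries with a gap wider than the range of either group, and the level was 31.4% lower by the fold change. The log2 fold change of -0.54 (SE 0.11) had an adjusted p of 0.116 in edgeR and 0.00612 in DESeq2. Prim1, the catalytic primase subunit, stood at -0.26 (SE 0.13), also without overlap. The ratio of Prim2 to Prim1 CPM was 0.885, 0.942 and 0.799 in the WT libraries and 0.621, 0.737 and 0.804 in the iKO libraries, and these ranges overlapped. Pola2, the accessory subunit of the polymerase, measured 82.3, 63.7 and 63.4 CPM in the WT libraries and 53.1, 56.9 and 44.5 CPM in the iKO libraries, without overlap, and its log2 fold change was -0.44 (SE 0.16), edgeR adjusted p 0.260. Pola1, the catalytic subunit and the single X-linked gene of the 40, measured 49.1, 75.4 and 68.8 CPM in the WT libraries and 38.5, 59.1 and 54.1 CPM in the iKO libraries. WT 2 lay below iKO 4 and iKO 33, so the groups overlapped, and the log2 fold change was -0.35 (SE 0.22). The other 373 tested genes of chromosome X had a median of 0.09, and Xist level and label went together in all 6 libraries.

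Prim2 and Orc2 lie on chromosome 1, where the other 670 tested genes had a median log2 fold change of -0.26, the lowest of any chromosome that holds a gene of the list. Without those 2 genes, 35 of 38 had a negative fold change and the median was -0.31. The part of chromosome 1 in the values of Prim2 and Orc2 was not tested.

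Polymerases delta and epsilon held the gene with the lowest fold change. All 6 genes were negative (median -0.38), and 3 reached an unadjusted p under 0.05. Pold1, the catalytic subunit of polymerase delta, which copies the lagging strand and proofreads it, measured 60.4, 39.6 and 57.3 CPM in WT 2, WT 3 and WT 4, and 27.2, 38.0 and 26.8 CPM in iKO 3, iKO 4 and iKO 33. The iKO libraries lay below all WT libraries, but iKO 4 was close to WT 3, and the spread within each group was wide. Pold1 (chromosome 7, 44532746 to 44548849, minus strand, mm10) had a log2 fold change of -0.77 (SE 0.21), a level 41.4% lower, with an adjusted p of 0.178 in edgeR and 0.0309 in DESeq2. Pold2, which binds the catalytic subunit in the same enzyme, stood at -0.15 (SE 0.11) with overlapping groups. The Pold1 to Pold2 ratio was 0.748, 0.564 and 0.735 in WT 2, WT 3 and WT 4 and 0.389, 0.521 and 0.424 in iKO 3, iKO 4 and iKO 33, without overlap. This pair, like Prim2 with Prim1, was also chosen after its values were seen, and the difference in ratio was not tested. Pold3, the subunit that links the enzyme to the clamp, measured 33.1, 28.0 and 33.9 CPM in the WT libraries and 23.3, 26.9 and 21.7 CPM in the iKO libraries, also without overlap, and its log2 fold change was -0.40 (SE 0.14), edgeR adjusted p 0.259.

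Among the epsilon genes Pole2, the subunit next in size to the catalytic one, had the lowest fold change. It measured 33.2, 32.99 and 30.2 CPM in WT 2, WT 3 and WT 4, and 20.5, 23.8 and 21.5 CPM in iKO 3, iKO 4 and iKO 33. The gap between the groups was wider than the range of either, with a log2 fold change of -0.55 (SE 0.12), an adjusted p of 0.121 in edgeR and 0.00622 in DESeq2. Pole, the catalytic subunit that copies the leading strand, stood at -0.37 (SE 0.18), and iKO 4 (95.6 CPM) lay within the WT range. Pole3, a histone-fold subunit, had a log2 fold change of -0.26 (SE 0.11) without overlap and an unadjusted edgeR p of 0.0543.

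All 6 clamp and loader genes had negative fold changes (median -0.36), and 3 reached an unadjusted p under 0.05. Pcna, the ring that slides along DNA and holds the polymerases, measured 339, 444 and 409.9 CPM in WT 2, WT 3 and WT 4, and 272, 280.4 and 276 CPM in iKO 3, iKO 4 and iKO 33. The iKO libraries were nearly equal to one another, while WT 2 was the lowest of the WT libraries. Pcna (chromosome 2, 132249162 to 132253314, minus strand, mm10) had a log2 fold change of -0.52 (SE 0.13), with an adjusted p of 0.147 in edgeR and 0.0220 in DESeq2; it has 2 annotated pseudogenes, Pcna-ps1 and Pcna-ps2, whose copies can take or lose reads. Rfc1, the large loader subunit, measured 134, 163 and 154 CPM in the WT libraries and 112, 123 and 131 CPM in the iKO libraries, without overlap, and had a log2 fold change of -0.30 (SE 0.12), edgeR adjusted p 0.306. Rfc3, a small ATPase subunit of the loader, measured 36.1, 30.9 and 41.1 CPM in the WT libraries and 23.6, 26.9 and 25.1 CPM in the iKO libraries, without overlap, and its log2 fold change was -0.51 (SE 0.14) with an adjusted p of 0.176 in edgeR and 0.0475 in DESeq2. Rfc4 stood at -0.43 (SE 0.24), where WT 2 (19.9 CPM) was below all iKO libraries, and it was -0.66 without that library. Rfc2 and Rfc5 had log2 fold changes of -0.25 (SE 0.15) and -0.27 (SE 0.13) with overlapping groups.

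The 3 subunits of RPA, which coats single-stranded DNA behind the helicase, were lower by small amounts (median -0.27). Rpa1, the large DNA-binding subunit, measured 154, 143 and 149.7 CPM in WT 2, WT 3 and WT 4, and 115, 126 and 119 CPM in iKO 3, iKO 4 and iKO 33. The groups were tight and separate, and the log2 fold change of -0.31 (SE 0.10) had an edgeR adjusted p of 0.216. Rpa2, the subunit phosphorylated on damage, measured 47.9, 44.0 and 50.8 CPM in the WT libraries and 41.0, 40.1 and 37.4 CPM in the iKO libraries, without overlap, and its log2 fold change was -0.27 (SE 0.11), edgeR adjusted p 0.321. Rpa3, the smallest subunit, stood at -0.15 (SE 0.15) with overlap.

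None of the 3 Okazaki fragment genes had an unadjusted p under 0.05, against 19 of the 40 and 7.7% of all genes lower at that level. Lig1, the ligase that seals the fragments, measured 160.1, 127 and 155 CPM in the WT libraries and 118, 134 and 93.3 CPM in the iKO libraries. One iKO library, iKO 4, lay above WT 3, and the log2 fold change was -0.36 (SE 0.16), edgeR adjusted p 0.363. Fen1, the nuclease that trims the flaps, stood at -0.28 (SE 0.14) with overlap. Rnaseh2a, the catalytic subunit of the enzyme that removes ribonucleotides, measured 59.0, 40.3 and 59.7 CPM in the WT libraries and 64.6, 60.2 and 49.5 CPM in the iKO libraries. WT 3 was the lowest of the 6 and iKO 3 the highest; the log2 fold change of 0.13 (SE 0.19) was -0.032 without WT 3.

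All 3 fork protection genes were lower without overlap between groups, against 20 of the 40 and 11.3% of all genes. Wdhd1, also called And-1, which tethers polymerase alpha to the helicase, measured 53.9, 45.5 and 58.4 CPM in WT 2, WT 3 and WT 4, and 32.9, 39.9 and 33.1 CPM in iKO 3, iKO 4 and iKO 33. Its log2 fold change was -0.57 (SE 0.14), a level 32.9% lower, with an adjusted p of 0.158 in edgeR and 0.0252 in DESeq2. Timeless, which with Tipin keeps the polymerases coupled to the helicase, measured 59.0, 44.8 and 55.8 CPM in the WT libraries and 34.9, 44.3 and 33.1 CPM in the iKO libraries, and iKO 4 was just under WT 3. The log2 fold change of Timeless was -0.51 (SE 0.16), edgeR adjusted p 0.229. Tipin measured 56.0, 62.2 and 64.1 CPM in the WT libraries and 47.0, 54.5 and 45.0 CPM in the iKO libraries, again without overlap, and had a log2 fold change of -0.32 (SE 0.12), edgeR adjusted p 0.297.

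The 2 large subunits of CAF-1, the chaperone that places histones on new DNA at the clamp, both had negative fold changes (median -0.44) with overlapping groups. Chaf1a measured 131, 89.8 and 124 CPM in the WT libraries and 82.1, 98.7 and 69.6 CPM in the iKO libraries, with WT 3 below iKO 4, and its log2 fold change was -0.46 (SE 0.19), edgeR adjusted p 0.321. Chaf1b stood at -0.43 (SE 0.22), and WT 3 (41.2 CPM) lay below iKO 3 and iKO 4 as well. For both genes WT 3 was the lowest WT library, and without it the log2 fold changes were -0.61 and -0.63.

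Levels between genes were compared as CPM per kilobase of merged exon length, from the GENCODE vM21 annotation (mm10). In the WT libraries Pcna stood far above the rest at 166 ± 22.3 CPM per kilobase (SD, n = 3), followed by Fen1 at 52.0 ± 4.99, Pold2 at 40.2 ± 2.91 and Lig1 at 34.5 ± 4.14. At the low end were Gins2 at 3.47 ± 0.650 and Gins3 at 5.35 ± 0.854 CPM per kilobase. Gins2 shares 67.3% and Fen1 78.8% of exon bases with another gene, so the places of both in these orders are uncertain. Within ORC, by merged exons, Orc6 (27.1 ± 2.60) and Orc2 (26.5 ± 1.31) did not differ beyond their spread and lay above Orc1 (9.68 ± 1.06), Orc4 (8.55 ± 2.66), Orc5 (7.12 ± 0.679) and Orc3 (6.49 ± 0.907), whose neighbours in that order overlapped. Within GINS the order was Gins4 (27.6 ± 2.37), Gins1 (16.3 ± 1.58), Gins3 and Gins2, and no neighbours in it overlapped. Within the clamp loader it was Rfc1 (25.03 ± 2.45), Rfc4 (20.2 ± 6.23), Rfc5 (14.7 ± 1.504), Rfc2 (11.3 ± 1.59) and Rfc3 (9.97 ± 1.40), where neighbours overlapped except Rfc5 and Rfc2. In the iKO libraries Gins4 was at 29.1 ± 1.06 and Gins1 at 11.4 ± 1.16 CPM per kilobase, and the order of the 4 GINS genes was as in WT. Scaled by the longest transcript instead, the orders within GINS and the loader stayed as given, while that within ORC did not. Orc6 (45.6 ± 4.38) then stood above Orc2 (28.7 ± 1.42) without overlap, and the rest ran Orc4, Orc3, Orc5 and Orc1, from 15.7 to 11.2 CPM per kilobase. Dbf4 moved from 15.8 to 55.0, next after Pcna, and Pola2 from 8.42 to 24.3 CPM per kilobase in WT.

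**Figure D3:**
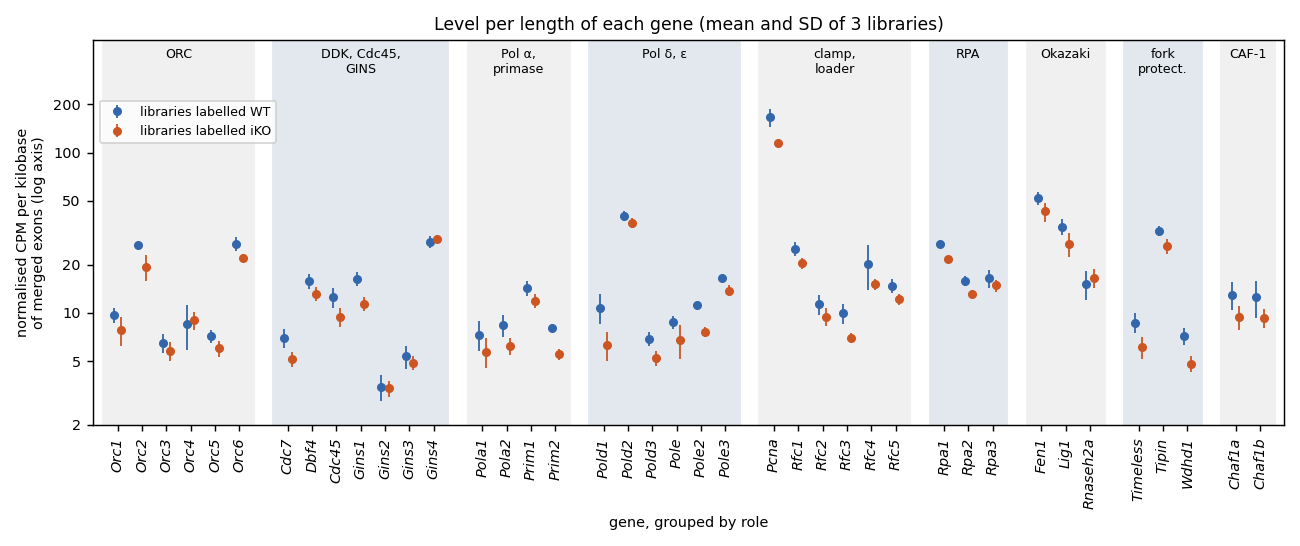
Normalised CPM per kilobase of merged exons on a log axis, mean and SD of the 3 libraries of each group, for the 40 genes grouped by role. Pcna is the highest at 166 against 115 CPM per kilobase, and Gins2 the lowest at 3.47 against 3.38. The level of Gins2 is uncertain, as most of its exon bases overlap Gse1.

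Exons of 19 of the 40 genes overlap those of another annotated gene, and 8 share at least 10% of their exon bases with one. The shares were 78.8% for Fen1 with an antisense transcript, 67.3% for Gins2 with Gse1, 52.5% for Chaf1a with Ubxn6 and 29.8% for Orc2 with Nif3l1. All 4 partners lie on the opposite strand. The kit does not mark strand, so reads of such partners cannot be told apart, and the levels and fold changes of these genes are uncertain. Of the 21 genes with no such overlap, 20 had a negative fold change.

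Other genes of replication were taken from 2 lists. Of 10 MCM helicase and licensing genes, all were lower (median -0.47) and 9 reached an unadjusted p under 0.05, against 7.7% of all genes. Mcm6 alone passed in edgeR (log2 fold change -0.81 (SE 0.10), edgeR adjusted p 0.0361), with Mcm3 next at -0.71 (SE 0.13). DESeq2 called 4 of the 10 lower, against 2.72% of the genes it adjusted. Of 21 tested genes from a list of 22 other fork factors, the remaining one not analysed here, 15 were lower and 6 higher (median -0.21), 6 of the lower and 1 of the higher reached an unadjusted p under 0.05, and none passed after adjustment in edgeR. DESeq2 called 2 of them, Dna2 and Mms22l. These had the smallest p in edgeR also: Dna2, a nuclease-helicase for long flaps, stood at -0.64 (SE 0.17), and Mms22l, which acts with Tonsl at stalled forks, at -0.39 (SE 0.10). The higher gene was Pold4, the smallest subunit of polymerase delta and the one degraded after DNA damage. Pold4 measured 13.6, 14.1 and 10.4 CPM in WT 2, WT 3 and WT 4, and 26.3, 18.04 and 16.8 CPM in iKO 3, iKO 4 and iKO 33. The Pold4 groups did not overlap, opposite in direction to Pold1, Pold2 and Pold3, and its log2 fold change was 0.68 (SE 0.22) with an edgeR adjusted p of 0.227; it was chosen for display after its values were seen.

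Lists on the state of the cells were set beside the fork genes. The mean log2 CPM of the 40 genes was 5.77, 5.73 and 5.87 in WT 2, WT 3 and WT 4, and 5.40, 5.59 and 5.41 in iKO 3, iKO 4 and iKO 33, so the groups did not overlap. The mean of 15 mitosis genes was 7.28 to 7.30 in the WT libraries and 6.91 to 7.43 in the iKO libraries, where iKO 33 was the lowest and iKO 4 the highest of the 6. Of those 15 genes, 12 were lower, against 48.8% of all genes, and 3 of them had an unadjusted p under 0.05, against 7.7%. DESeq2 called 2 of the 15 lower, Ccna2 and Bub1b, against 2.72% of the genes it adjusted. Cenpe, a kinetochore motor, was higher with an unadjusted edgeR p under 0.05 (0.73 (SE 0.28)) and overlapping groups. Of the lower genes Ccna2, the cyclin of S phase and G2, stood at -0.53 (SE 0.14), Bub1b of the spindle checkpoint at -0.56 (SE 0.15), and Ccnb1, a mitotic cyclin, at -0.33 (SE 0.13). The proliferation marker Mki67, named after its values were seen, stood at 0.11 (SE 0.21) with overlap. The part of cell cycle state in the fork genes' values was not tested. Of 16 ribosomal protein genes set beside them, 14 were higher and 2 lower (median 0.10), none with an unadjusted p under 0.05 in edgeR. Their mean was 10.11 to 10.14 against 10.12 to 10.38 log2 CPM, and RNA quality itself was not measured here. Reads not aligned to a unique place were 29.5% to 30.5% of all counts in the WT libraries and 21.7% to 26.5% in the iKO libraries. Nor was the part of the ribosomal protein and alignment differences tested.

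**Figure D4:**
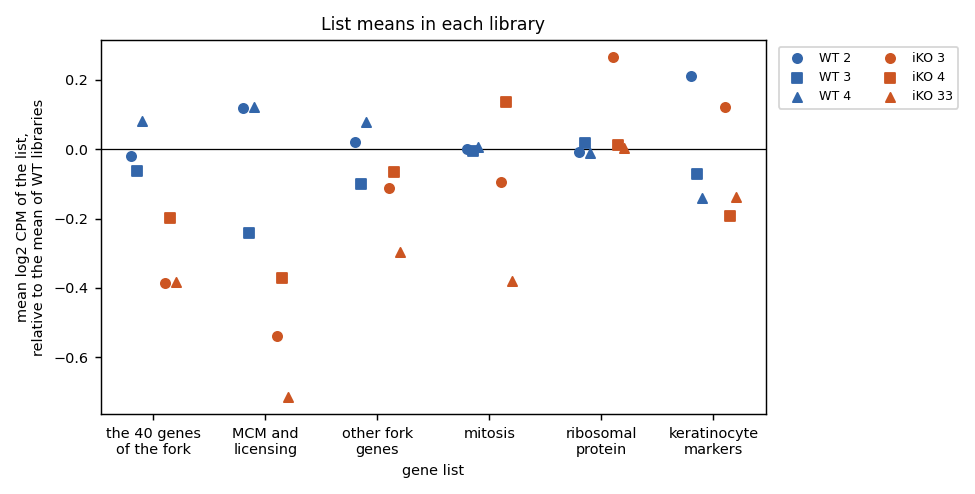
Mean log2 CPM of 6 gene lists in each library, relative to the mean of the 3 WT libraries, with one point per library. The 40 fork genes and the MCM list separate the groups, and the other fork genes, mitosis, ribosomal protein and keratinocyte lists overlap between them.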

How the data were processed

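The authors deposited raw whole-number counts for each gene symbol in 6 libraries. Per the submitters' processing notes the tools were TopHat2, HTSeq, DESeq2 and DESeq and the build mm10; no source used here gives their versions, the annotation or the strand setting. HTSeq summary rows (27.4% to 35.5% of counts per library) were left out. A second table deposited by the authors holds, per the file headers, a mean signal of normalised counts, a log2 fold change and its error, the test score and p-values. The column numbered 33 matches no title and was used as an iKO library without a number.

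Counts were fitted in R 4.3.3 with edgeR 4.0.16 (filterByExpr with minimum count 10, TMM, glmQLFit and glmQLFTest, robust, group as the only term, Benjamini-Hochberg over 12672 genes, threshold 0.05). The SE is the absolute log2 fold change over the square root of F. Mean log2 CPM used a prior count of 2. Alternatives were other scalings and filters, DESeq2 1.42.0, limma-voom (limma 3.58.1), no robust estimation, a replicate block, a depth block, a threshold of 0.1 and each library left out. The 40 genes, the lists and the tests were chosen with earlier results of these data known. Library values are given for the gene with the smallest p in each role group, each gene with an unadjusted p under 0.05, each with a positive fold change, and Pola1; each other list is given as counts with its genes of smallest p.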

Additional observations from a re-analysis of the deposited data

How the results depend on the processing

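None of the 40 genes passed in edgeR under any alternative, an adjusted p of 0.1 included, nor in limma-voom. Of the 40, 19 were lower with an unadjusted p under 0.05 in edgeR, against 7.7% of all genes. In limma-voom 17 were lower at that level, and the share over all genes was not computed there. DESeq2 called 7 lower, against 2.72% of the genes it adjusted. The count of lower genes was 36 to 38 in every setting. Leaving out single libraries gave medians from -0.42 (without iKO 4) to -0.29 and 20 to 31 of the 40 without overlap, against 15.1% to 18% of all genes. Per longest transcript the median level in WT was 18.6 CPM per kilobase, against 12.8 per merged exon length. With 2 E2F spellings in place of 4, 21.2% of the genes held a match. Genes near 0 changed sign: Gins2 was 0.0039 in limma-voom, Orc4 ran from -0.10 to 0.35, Gins2 from -0.17 to 0.091 and Rnaseh2a from -0.032 to 0.24 over single libraries left out. The shared numbers 3 and 4 were not stated to mark shared animals or days. On those 4 libraries, with the number as a replicate block, Orc4 was -0.18, Gins2 0.079 and Gins3 0.0045, with 0 of the 40 called and 103 calls over all genes; without the block Orc4 was -0.21 and Gins2 0.058, with 0 of the 40 and 4 calls over all genes. The deviations of WT 3 and iKO 3 from their means over libraries 3 and 4 correlated at 0.596 across genes. The main fit held no term for these shared numbers. The lowest raw count of any of the 40 in a library was 313.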
